A study of Capra hircus with 10 samples.

Results

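Of the 20587 protein-coding gene symbols measured in goat ovaries, 9 belong to the oxytocin and prostaglandin system that brings about luteolysis, the regression of the corpus luteum at the end of the cycle. They were chosen by symbol: OXT, OXTR, PTGFR, PTGS1, PTGS2, PTGES, PTGER2, PTGER4 and HPGD. All 9 were in the table, with 13 transcripts of the 43766 protein-coding ones, and FPKM (fragments assigned to a transcript in relation to its length and to the depth of the library) was summed over the transcripts of a symbol. The ovaries came from Anhui white goats at a slaughterhouse, 5 labelled as luteal and 5 as follicular phase, and total RNA of each ovary was depleted of ribosomal RNA and sequenced in paired ends as 1 library. The labels give no age, no treatment and no day of the cycle, and they do not say that the 5 ovaries of a phase came from 5 goats. The p-values therefore measure only the spread between these ovaries. A whole ovary holds follicles, stroma and vessels beside any corpus luteum, and in such a sample more cells of a type and more RNA per cell cannot be told apart.

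In ruminants the corpus luteum itself makes oxytocin. The peptide acts on its receptor in the uterus, where it raises the release of prostaglandin F2alpha, and this prostaglandin returns to the ovary, binds the receptor encoded by PTGFR on luteal cells and ends progesterone secretion. Prostaglandins start from arachidonic acid through the cyclooxygenases PTGS1 and PTGS2. PTGES then makes prostaglandin E2, which acts through receptors such as PTGER2 and PTGER4 and is known in this tissue for its roles in ovulation and in luteal support, while HPGD breaks prostaglandins down.

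The markers of luteal steroidogenic cells separated the ovaries by their labels, whereas 4 of 6 granulosa markers overlapped between the phases. All 5 measured markers of luteal steroidogenic cells rose in the luteal phase, and their summed FPKM ran from 4796 to 6746 in luteal phase ovaries and from 123.6 to 187 in follicular phase ovaries. STAR, which carries cholesterol into mitochondria, was at 2651 ± 507 in luteal and 16.6 ± 5.58 in follicular ovaries (SD, n = 5 per phase). The theca markers INSL3 and CYP17A1 fell, and of 6 granulosa markers FSHR and AMH fell while the other 4 did not pass the test. The 4 smooth muscle markers fell, the 5 endothelial markers rose, 4 of 6 oocyte markers fell and 4 of 5 leukocyte markers did not pass the test, with LYZ the exception, which fell. Among the stromal and epithelial markers, LUM rose, KRT19 fell and the other 5 did not pass the test. CYP11A1, CYP17A1 and LYZ were found under the symbols LOC102173131, LOC102182663 and S-LZ, and the last of these, matched by a synonym, may not be the lysozyme of leukocytes. The calls of the smooth muscle gene DES and of LYZ were lost after alignment to 1 median. The blood marker ALAS2 was at or near 0 in all ovaries.

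Fold changes are given as log2(FPKM + 0.1) of luteal less follicular phase ovaries, tested by limma on both sides. Adjusted p-values follow Benjamini and Hochberg over the 15359 genes whose FPKM reached 0.1 in 5 or more of the 10 ovaries. A call is an adjusted p under 0.05. Of the 9 genes, 8 passed this filter and OXTR did not. OXT and PTGFR rose in the luteal phase, and the other 6 did not pass the test. Thus 2 of 8 were called, and the same 2 had ranges that did not overlap between the phases. Over all genes tested 43.7% were called, 15.9% as higher and 27.8% as lower in the luteal phase, and 28.4% had phases that did not overlap. When the ovaries were aligned to 1 median, 2910 genes were higher and 3055 lower, against 2439 and 4272 unaligned. With TPM, in which FPKM is rescaled to a fixed sum, the numbers were 2899 and 2665. The median log2 fold change was -0.28 over the 8 genes and -0.14 over all genes tested.

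**Figure D1:**
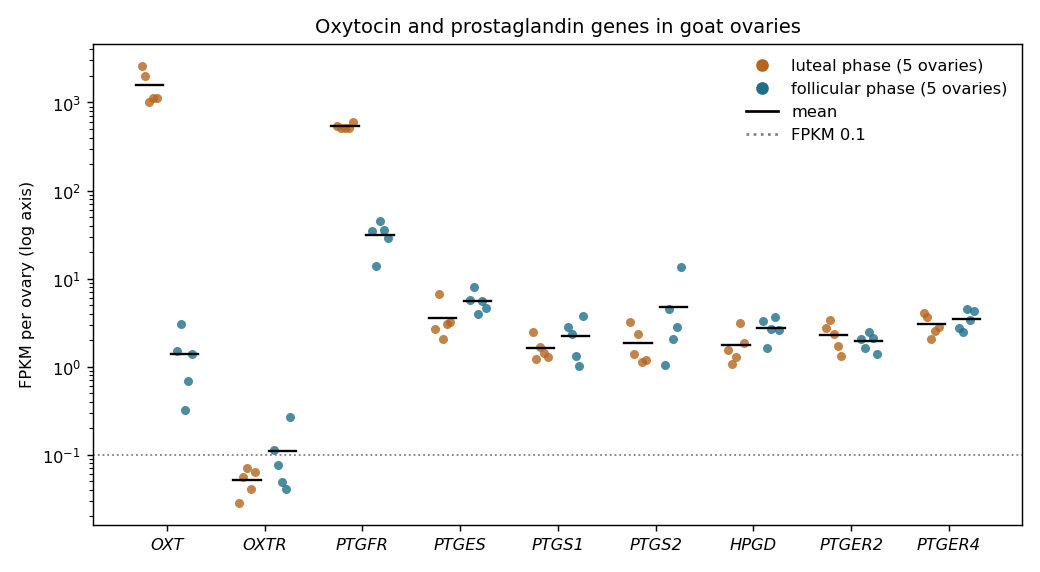
FPKM (log axis) of the 9 genes in each of the 5 luteal phase ovaries (brown) and 5 follicular phase ovaries (blue), with the mean of each phase as a black line and the FPKM of 0.1 used in the filter as a dotted line. OXT and PTGFR are separated by phase, OXTR lies near or below the dotted line, and the points of the other genes overlap.

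OXT encodes the precursor of oxytocin and of the neurophysin that carries it. Its FPKM in luteal phase replicates 1 to 5 was 2607, 1977, 1021, 1123 and 1133, and in follicular phase replicates 1 to 5 it was 1.495, 3.05, 0.322, 0.681 and 1.38. The phases did not overlap, and the lowest luteal phase ovary lay 335 times above the highest follicular phase ovary. The mean was 1572 ± 695 in luteal and 1.39 ± 1.05 in follicular ovaries (SD, n = 5 per phase), a ratio of 1134. On the log2(FPKM + 0.1) scale, which understates the change of a gene this low in 1 phase, OXT rose by 10.26 (standard error 0.47, 95% interval 9.22 to 11.29, limma adjusted p = 7.30e-08). Only 1 of the 15359 genes tested had a larger rise.

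Ranked by FPKM among all 20587 symbols, OXT stood between places 11 and 79 in luteal phase ovaries and between places 10038 and 13977 in follicular phase ovaries. It alone held between 0.229% and 0.581% of the summed protein-coding FPKM of a luteal phase ovary. Within the luteal phase, replicates 1 and 2 were high and the other 3 lay close together, so that the highest ovary was 2.55 times the lowest. The coefficient of variation was 44.2%. Of the 603 tested genes with a luteal phase mean FPKM of at least 100, 96.7% had a lower one. The table lists a single OXT transcript, XM_018057424.1.

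PTGFR encodes the receptor of prostaglandin F2alpha, a membrane receptor that raises calcium in the cell. Its FPKM in luteal phase replicates 1 to 5 was 535, 510.03, 513, 519.8 and 595, and in follicular phase replicates 1 to 5 it was 34.4, 13.8, 44.7, 35.2 and 28.6. The phases were again apart, with every luteal phase ovary at least 11.4 times above the highest follicular phase ovary. The mean was 535 ± 35.0 in luteal and 31.4 ± 11.4 in follicular ovaries (SD, n = 5 per phase), a ratio of 17.0. PTGFR rose by 4.18 on the log2 scale (standard error 0.25, 95% interval 3.64 to 4.73, limma adjusted p = 5.52e-07), the 35th largest rise of all genes tested.

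In contrast to OXT, the luteal phase ovaries barely differed in PTGFR. The coefficient of variation was 6.55% in the luteal phase, against a median of 12.3% over the 603 genes with a luteal phase mean FPKM of at least 100, and it was 36.3% in the follicular phase. Follicular phase replicate 2 was the lowest for PTGFR and the highest for OXT among follicular phase ovaries. Without that ovary the log2 fold change of PTGFR was 3.91. PTGFR has 2 transcripts in the table. XM_005678194.3 held 97.2 ± 0.764% of the sum in luteal and 95.7 ± 1.35% in follicular ovaries (SD, n = 5 per phase), and XM_018045663.1 held the rest. Both rose, by 4.21 (standard error 0.27, limma adjusted p = 6.70e-06) and 3.47 (standard error 0.26, limma adjusted p = 2.50e-05). The adjustment was over the 32842 transcripts tested, of which 17.3% were called, 7.47% as higher and 9.82% as lower.

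**Figure D2:**
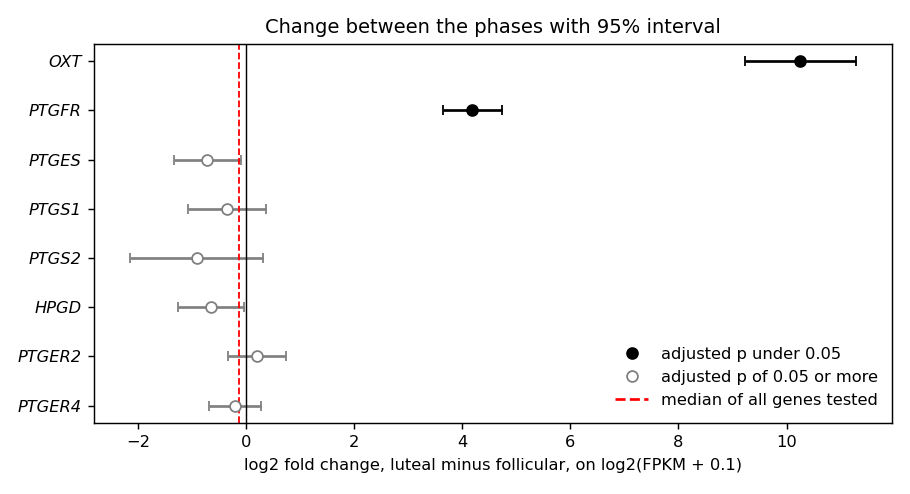
Log2 fold change, luteal minus follicular, on log2(FPKM + 0.1) with its 95% interval for the 8 genes tested, filled where the limma adjusted p was under 0.05, and the median of all genes tested (-0.14) as a red dashed line. OXT (10.26) and PTGFR (4.18) lie far to the right, and the intervals of PTGS1, PTGS2, PTGER2 and PTGER4 span 0.

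The luteal cell markers rose together with both genes, so OXT and PTGFR were also divided by each of the 5 markers within the same ovary. This comparison was chosen after the data had been seen and is given as ranges with no test. The 5 markers still summed to 123.6 to 187 in follicular ovaries, and the data do not show which cells held them there. A ratio to a marker is therefore not a level per luteal cell. OXT per STAR ran from 0.346 to 1.17 in luteal and from 0.0266 to 0.167 in follicular ovaries. OXT per LHCGR, the receptor of luteinizing hormone, ran from 10.4 to 34.1 and from 0.0354 to 0.163. The phases did not overlap for OXT with any of the 5 markers, and the luteal phase median was between 9.11 times (STAR) and 91.2 times (LHCGR) the follicular phase median.

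PTGFR gave another picture on this scale. PTGFR per STAR was lower in the luteal phase, from 0.160 to 0.247 against 0.757 to 3.69 in the follicular phase, and did not overlap. PTGFR per LHCGR was higher in the luteal phase, from 5.17 to 7.002 against 0.737 to 4.92. Per CYP11A1, SCARB1 and FDX1 the ranges overlapped, with a luteal phase median of 0.683, 1.23 and 1.58 times the follicular phase median. The change of PTGFR between the phases was therefore larger or smaller than that of a luteal marker according to which marker was taken. The part of luteal cell number in the rise of either gene was not tested.

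**Figure D3:**
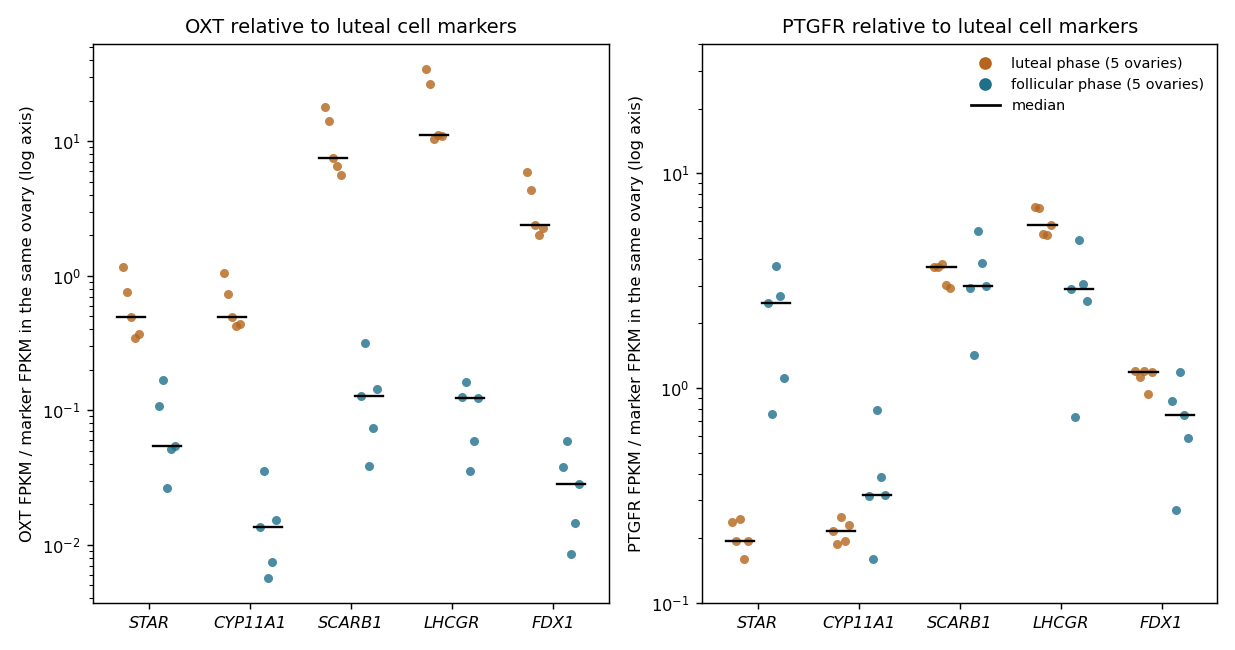
FPKM of OXT (left) and PTGFR (right) divided by the FPKM of 5 luteal cell markers in the same ovary (log axes), for 5 luteal phase (brown) and 5 follicular phase (blue) ovaries with the median of each phase as a black line. OXT per marker is higher in every luteal phase ovary for all 5 markers, whereas PTGFR per marker is lower for STAR, higher for LHCGR and overlaps for the other 3.

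OXTR, the receptor of oxytocin, was low throughout. Its FPKM ran from 0.0283 to 0.0712 in the luteal phase (median 0.0564) and from 0.0410 to 0.266 in the follicular phase (median 0.0770). The phases overlapped, and 2 of the 10 ovaries, both follicular, reached 0.1. It was therefore not tested. With no filter its log2 fold change was -0.37 (limma adjusted p = 0.243). Of its 4 transcripts, 2 were listed at 0 in all ovaries and XR_001917039.1 was above 0 in follicular phase replicates 2 and 5 only, where it gave most of the sum. The remaining transcript, XM_018038465.1, gave all of the luteal sum. Its mean hardly differed, at 0.0520 ± 0.0174 in luteal and 0.0511 ± 0.0397 in follicular ovaries (SD, n = 5 per phase). In luteal phase ovaries OXT thus stood above all other members while the receptor of its product stood below them all.

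The cyclooxygenases make the precursor shared by all prostaglandins, PTGS1 in most cells at all times and PTGS2 on stimulation, as in follicles before ovulation. PTGS1 had an FPKM of 2.44, 1.21, 1.68, 1.43 and 1.29 in luteal phase replicates 1 to 5 and of 2.81, 2.34, 1.32, 1.01 and 3.72 in follicular phase replicates 1 to 5. The ranges overlapped, and the log2 fold change was -0.35 (95% interval -1.07 to 0.36, limma adjusted p = 0.402). PTGS2 was at 3.22, 1.38, 2.35, 1.13 and 1.20 in luteal and at 1.05, 4.47, 2.08, 2.81 and 13.6 in follicular ovaries. The phases overlapped, and the follicular phase mean, 4.81 ± 5.09 (SD, n = 5), rested on replicate 5. The log2 fold change of PTGS2 was -0.91 (95% interval -2.14 to 0.31, limma adjusted p = 0.204), and left-out ovaries moved it from -0.41 (adjusted p = 0.449, without follicular phase replicate 5) to -1.31 (adjusted p = 0.0638, without follicular phase replicate 1). FOS, JUN, ATF3 and NR4A1, which cells switch on within minutes of a stimulus, were also highest in that ovary, at 646, 332, 51.4 and 69.6 against at most 240.3, 142, 19.0 and 33.3 in the other follicular phase ovaries. The leukocyte markers PTPRC (16.7), CD68 (13.5) and CD3E (7.44), 3 of the 5 measured, and the oocyte markers ZP3, ZP4, GDF9 and FIGLA, 4 of the 6 measured, were highest in that ovary too. Among follicular phase ovaries it was also highest for markers of other cell types, among them STAR (25.7), CYP17A1 (40.6), DCN (1206), LUM (156) and KRT19 (1.63). It was highest for no granulosa or smooth muscle marker. The leukocyte markers summed to 64.8 there, the upper end of a follicular range that began at 35.4, and to 32.5 to 49.0 in luteal ovaries. The part of any of these in the PTGS2 value was not tested.

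PTGES, the terminal synthase of prostaglandin E2, was at 2.71, 6.76, 2.04, 3.05 and 3.19 in luteal phase replicates 1 to 5 and at 5.71, 8.01, 3.95, 5.58 and 4.63 in follicular phase replicates 1 to 5. Luteal phase replicate 2 lay within the follicular range and the other 4 lay below it. Its log2 fold change was -0.72 (95% interval -1.34 to -0.10), which did not pass the test (limma adjusted p = 0.0596). It passed without luteal phase replicate 2 (-0.97, adjusted p = 0.00444) and without follicular phase replicate 3 (-0.83, adjusted p = 0.0486). HPGD, the enzyme that inactivates prostaglandins E2 and F2alpha, was at 1.56, 1.08, 1.28, 3.14 and 1.85 in luteal and at 3.33, 1.63, 2.66, 3.62 and 2.57 in follicular ovaries. The ranges overlapped through luteal phase replicate 4 and follicular phase replicate 2. The log2 fold change of HPGD was -0.65 (95% interval -1.27 to -0.03, limma adjusted p = 0.0821), and the test was passed without luteal phase replicate 4 (-0.87, adjusted p = 0.0178) and without follicular phase replicate 2 (-0.82, adjusted p = 0.0294).

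PTGER2 and PTGER4 encode receptors that answer prostaglandin E2 with cyclic AMP. PTGER2 was at 2.77, 3.35, 2.38, 1.74 and 1.31 in luteal phase replicates 1 to 5 and at 2.07, 1.61, 2.47, 2.13 and 1.38 in follicular phase replicates 1 to 5. PTGER4 was at 4.09, 3.63, 2.04, 2.54 and 2.79 and at 2.78, 2.45, 4.52, 3.42 and 4.32. The ranges of the phases overlapped for both receptors. The log2 fold change was 0.20 for PTGER2 (95% interval -0.34 to 0.74, limma adjusted p = 0.526) and -0.21 for PTGER4 (95% interval -0.69 to 0.27, limma adjusted p = 0.459), so a change of 2-fold in either direction, 1 on the log2 scale, lay outside both intervals.

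In the luteal phase the order by mean FPKM was OXT, PTGFR, PTGES, PTGER4, PTGER2, PTGS2, HPGD, PTGS1 and OXTR. OXT was above PTGFR in 5 of 5 ovaries with no overlap, PTGFR was likewise apart from PTGES, and OXTR was apart from PTGS1. All neighbours from PTGES to PTGS1, between 3.55 ± 1.85 and 1.61 ± 0.499, overlapped. In the follicular phase the order was PTGFR, PTGES, PTGS2, PTGER4, HPGD, PTGS1, PTGER2, OXT and OXTR. There PTGFR was apart from PTGES and OXTR was apart from OXT, and all neighbours from PTGES to OXT overlapped. OXT thus moved from the eighth place to the first, while PTGFR was in the first or second place in both phases.

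Members were also compared with each other within the same ovary, as the log2 ratio of FPKM + 0.1, and 4 ratios were tested by exact permutation of the ovaries, two-sided, with Benjamini-Hochberg adjustment over the 4. The log2 ratio of PTGFR to PTGER2 was 7.86 ± 0.58 in luteal and 3.88 ± 0.49 in follicular ovaries (SD, n = 5 per phase), a difference of 3.98 with the phases apart (exact permutation p = 0.00794, the smallest that 5 against 5 allows, adjusted p = 0.0317). It restates the log2 fold changes of both genes, and the adjusted p was 0.0635 without any 1 ovary other than follicular phase replicate 1, since 4 against 5 allows no p below 0.0159. The ratio of inducible to constitutive cyclooxygenase, PTGS2 to PTGS1, differed by -0.56 (exact permutation p = 0.373, adjusted p = 0.497). It was above 0 in 3 of 5 luteal phase and in 4 of 5 follicular phase ovaries, and without follicular phase replicate 1, the lowest, the difference was -1.07 (exact permutation p = 0.0159, adjusted p = 0.0317). PTGES to HPGD, synthesis against breakdown, differed by -0.07 (exact permutation p = 0.905, adjusted p = 0.905). That small difference changed sign without luteal phase replicate 3 (0.0049), luteal phase replicate 4 (0.17) or follicular phase replicate 2 (0.24). PTGER2 to PTGER4 differed by 0.41 (exact permutation p = 0.230, adjusted p = 0.460). OXT to OXTR was not tested, since OXTR did not pass the filter.

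**Figure D4:**
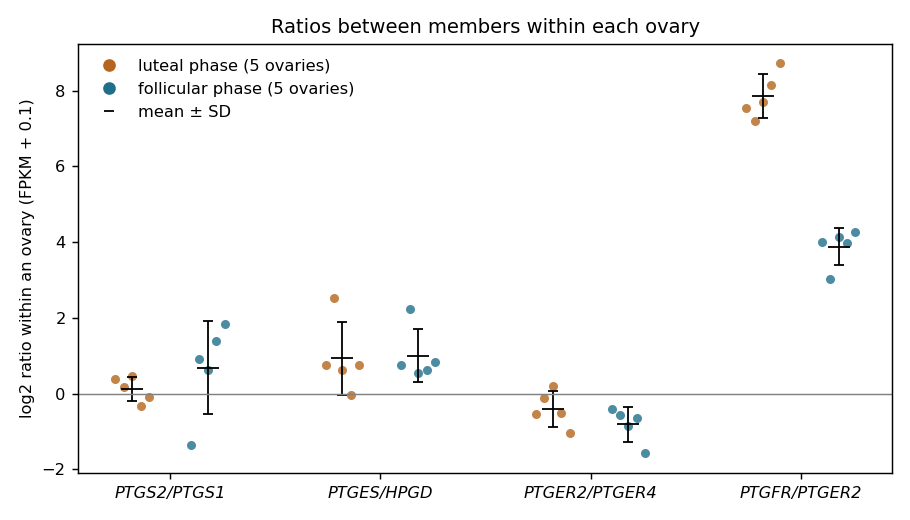
Log2 ratio of FPKM + 0.1 between members within each ovary, for 5 luteal phase (brown) and 5 follicular phase (blue) ovaries, with mean ± SD in black. The phases are apart for PTGFR to PTGER2 (7.86 against 3.88) and overlap for the other 3 ratios.

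Around these members, 54 further genes of prostaglandin and oxytocin biology were listed, of which 48 were in the table and 44 passed the filter. In the luteal phase 20 of the 44 rose, 9 fell and 15 did not pass the test, so 65.9% were called, with a median log2 fold change of 0.31. Over all genes tested 43.7% were called (15.9% higher and 27.8% lower) and the median was -0.14. After alignment to 1 median 22 were higher and 5 lower, and after quantile normalization 23 and 7. Among the 20 was AVPR2, which passed the filter through the luteal ovaries alone. Without it, the calls of 19 genes, 14 higher and 5 lower, held under each of the 20 alternatives in which they were tested. The other 9 called genes, PTGES3, TBXAS1, TBXA2R, LNPEP, PCSK1, PCSK5, GNA11, EDNRA and FOS, lost the call under at least 1 of them.

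Among the enzymes of prostaglandin synthesis 3 of 7 rose, 2 fell and 2 did not pass the test, against 15.9% higher and 27.8% lower over all genes. PTGIS, which makes prostacyclin, was at 58.1 ± 18.2 in luteal and 12.4 ± 2.26 in follicular ovaries (SD, n = 5 per phase), a log2 fold change of 2.18 (limma adjusted p = 1.59e-05). HPGDS, a synthase of prostaglandin D2, ran from 2.42 to 6.20 in luteal and from 0.1097 to 0.765 in follicular ovaries (log2 fold change 3.06, limma adjusted p = 0.000125). TBXAS1, the thromboxane synthase, rose by 1.03 (limma adjusted p = 0.0251). AKR1B1, a reductase that can make prostaglandin F2alpha, fell from 139 ± 19.4 in the follicular phase to 90.3 ± 4.67 in the luteal phase (SD, n = 5 per phase; log2 fold change -0.61, limma adjusted p = 0.000540). PTGES3 was lower by a log2 fold change of -0.32 (limma adjusted p = 0.0127), a call that was lost after alignment to 1 median and with TPM.

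Of the 4 genes for prostaglandin transport and reduction, 3 rose, against 15.9% of all genes. SLCO2A1, the importer that takes prostaglandins into cells, was at 15.6 ± 3.84 and 2.58 ± 0.343 (SD, n = 5 per phase; log2 fold change 2.52, limma adjusted p = 1.35e-06). ABCC4, an exporter, and PTGR2, a prostaglandin reductase, each rose by 0.46. PTGR1, the other reductase, was at 83.0 ± 22.4 and 102.9 ± 17.2 (SD, n = 5 per phase) and did not pass the test (log2 fold change -0.33, limma adjusted p = 0.140). The endothelial markers moved with the 3 genes that rose, with a summed FPKM of 184 to 236 in luteal phase ovaries and 79.7 to 92.6 in follicular phase ovaries, and their part in these changes was not tested.

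Of the other prostanoid receptors, 4 of the 5 tested genes rose and none fell, against 15.9% higher and 27.8% lower over all genes, and PTGFRN, named as a negative regulator of the F2alpha receptor, did not pass the test. PTGER3, a prostaglandin E2 receptor that lowers cyclic AMP, was at 6.76, 4.55, 7.76, 14.1 and 15.8 in luteal phase replicates 1 to 5 and between 0.201 and 0.450 in follicular phase ovaries. It rose by 4.55 (standard error 0.33, limma adjusted p = 2.74e-06), while PTGER2 and PTGER4 did not pass the test. In the luteal phase its mean, 9.79 ± 4.88, was above that of PTGER4, 3.02 ± 0.829, and in the follicular phase its mean, 0.294 ± 0.114, was below that of PTGER4, 3.50 ± 0.915 (SD, n = 5 per phase). PTGIR, the prostacyclin receptor, rose by 1.28 (limma adjusted p = 0.000214) and PTGDR, a prostaglandin D2 receptor, by 1.23 (limma adjusted p = 0.00459). TBXA2R, the thromboxane receptor, rose by 0.61 (limma adjusted p = 0.0231), but this call was lost under 5 of the alternatives, and its change reversed when its most abundant transcript was taken in place of the sum. PTGER1 and PTGDR2 were under the filter. The endothelial and luteal cell markers rose as well, and their part in the rise of the 4 receptors was not tested.

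Of 6 tested genes listed for oxytocin and vasopressin, with AVPR2 left aside, 5 were called as higher, against 15.9% of all genes, namely AVP, the receptor AVPR1A and the peptide-cutting enzymes LNPEP, PCSK1 and PCSK5. AVPR1A, a vasopressin receptor that also binds oxytocin, was at 13.3, 17.0, 2.71, 11.5 and 10.3 in luteal phase replicates 1 to 5 and at 2.01, 1.07, 0.202, 0.460 and 0.354 in follicular phase replicates 1 to 5. It did not overlap between the phases and rose by 3.73 (standard error 0.57, limma adjusted p = 0.000480). AVP, the vasopressin precursor gene and the direct neighbour of OXT in the goat gene order, was at 5.01, 4.59, 1.31, 1.85 and 1.42 in luteal and between 0.0890 and 0.593 in follicular ovaries (log2 fold change 2.94, limma adjusted p = 0.000436). OXT exceeded AVP 430.5 to 799.5 times in luteal phase ovaries and 1.15 to 22.2 times in follicular phase ovaries. The 2 genes share a very similar neurophysin exon, and how reads were divided between them is not given in the sources used here, so the AVP value is uncertain. AVPR2, the renal type vasopressin receptor, ran from 0.151 to 0.291 in luteal ovaries and from 0 to 0.0786 in follicular ovaries, so it passed the filter through the luteal ovaries alone and its call (log2 fold change 1.33, limma adjusted p = 0.000899) could not be repeated without any 1 of them. AVPR1B was at 0 in all luteal ovaries and at most 0.0459 in follicular ovaries, and was not tested. LNPEP, which degrades oxytocin, rose by 0.43 (limma adjusted p = 0.0256). Among the enzymes that process peptide hormones, PCSK5 rose (0.40, limma adjusted p = 0.0205), PCSK1 was called (0.84, limma adjusted p = 0.0458) but lost the call under 11 of the 20 alternatives, PAM did not pass the test and PCSK2 was under the filter.

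Of 9 tested signalling genes under the receptors, 1 was higher, 2 were lower and 6 did not pass the test, so 33.3% were called against 43.7% of all genes. After alignment to 1 median 3 were higher and 1 was lower, 44.4% against 38.8% of all genes. PRKCB, a protein kinase C, was at 5.54 ± 0.497 and 1.89 ± 0.530 (SD, n = 5 per phase; log2 fold change 1.54, limma adjusted p = 5.61e-05), while its relative PRKCA fell (log2 fold change -0.67, limma adjusted p = 0.000934). None of the 4 phospholipase C genes passed the test, although PLCB1 did so as higher when ovaries were aligned to 1 median, as did PRKCD. Of 12 tested genes listed for the vascular and early response side of luteal regression, 3 rose, 5 fell and 4 did not pass the test, against 15.9% higher and 27.8% lower over all genes. After alignment to 1 median 3 were higher and 3 lower, against 2910 and 3055 of all 15359 genes. In the endothelin system ECE1, which activates endothelins, was at 150.3 ± 38.0 against 66.9 ± 20.8 (SD, n = 5 per phase; log2 fold change 1.19, limma adjusted p = 0.00125), and EDNRB was higher (1.52, limma adjusted p = 0.00126), while EDN1 did not pass the test. EDNRA was lower (-0.67, limma adjusted p = 0.0414), a call lost under 14 of the 20 alternatives. NOS3, the endothelial nitric oxide synthase, rose by 1.02 (limma adjusted p = 0.000237). The 5 endothelial markers rose by 0.91 to 1.59 and the 4 smooth muscle markers had log2 fold changes of -1.25 to -0.65, and their part in the changes of these vascular genes was not tested. AGTR1, an angiotensin receptor, its ligand precursor AGT and the transcription factor genes FOS and JUN fell. The calls of GNA11, EDNRA and FOS were lost after alignment to 1 median and with TPM. GNA11 lost its call under 10 of the 20 alternatives and FOS under 14, in both cases also when single ovaries were left out.

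**Figure D5:**
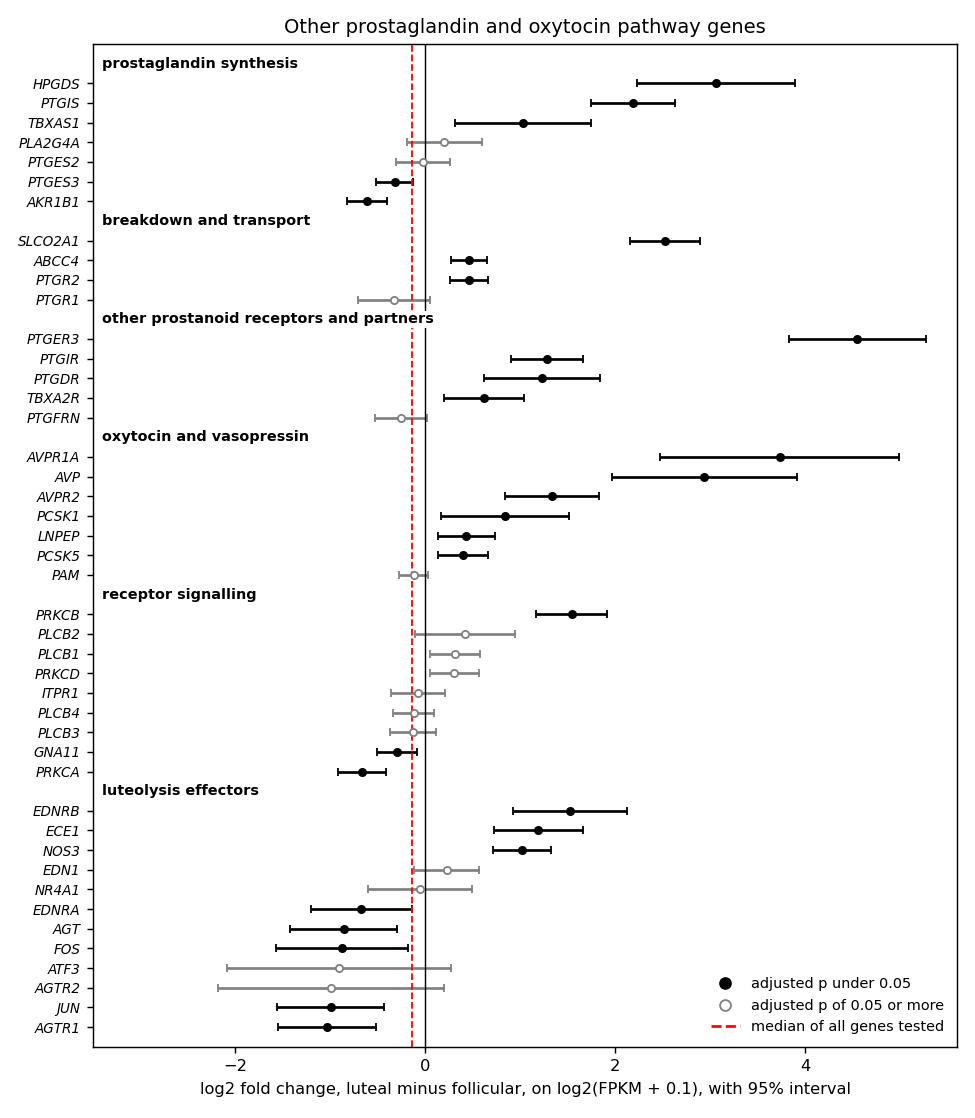
Log2 fold change, luteal minus follicular, on log2(FPKM + 0.1) with its 95% interval for the 44 tested genes of the wider pathway list, grouped by role, filled where the limma adjusted p was under 0.05, with the median of all genes tested as a red dashed line. PTGER3 (4.55), AVPR1A (3.73) and HPGDS (3.06) lie farthest to the right, and AGTR1 (-1.04) farthest to the left.

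The tested genes most like OXT in their log2 values over the 10 ovaries, other than members and unnamed loci, were STC2, NCF4, KIAA1324, RPS6KA3 and TFPI, with a likeness (Pearson's r) of 0.997 to 0.992. For PTGFR they were EPHX1, SH3TC2, PTPRN, CCDC159 and CPXM2, with 0.991 to 0.987. The ovaries fall into separate groups by phase for all of these genes, each of which was higher in the luteal phase. Such a separation alone can give a high r, the likeness within a phase was not examined, and no likeness was tested. The levels were far apart. KIAA1324 had the largest change of the 10, from 0.197 ± 0.0929 in the follicular phase to 34.0 ± 2.50 in the luteal phase (SD, n = 5 per phase), and STC2, the nearest to OXT, went from 0.486 ± 0.108 to 1.95 ± 0.201.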

How the data were processed

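Total RNA of 5 luteal phase and 5 follicular phase goat ovaries was sequenced. The authors used HISAT2 for alignment, StringTie for assembly and Cuffdiff for the deposited FPKM, given for each transcript in each ovary without pooling. The genome build is not given in the sources used here. The mRNA table repeats the transcript table, with 43766 of 43766 protein-coding transcripts identical. The table of annotated lncRNAs was not used. The tables hold no read counts, so the depth of an ovary is unknown and the spread between ovaries is the only measure of precision. FPKM summed to between 452508 and 540124 per ovary.

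FPKM were summed per symbol and tested as log2(FPKM + 0.1) with limma 3.58.1 (eBayes with trend) in R 4.3.3, with no block and no further scaling. Permutation tests used scipy 1.17.1 in Python 3.11.15, and figures matplotlib 3.10.9. The scripts were tested on simulated data. The members, lists and tests were chosen with earlier results of these data known. Genes are named where they are members, stand in the pathway or marker lists, or are the 5 most like OXT or PTGFR. Listed symbols absent from the table were matched through RefSeq synonyms (assembly ARS1.2), and 6 of the 54 pathway genes and 5 of the marker genes that found no match were not analysed here. The alternatives tried were a replicate block, leaving out each ovary in turn, the most abundant transcript in place of the sum, 3 scalings (alignment of the ovaries to 1 median, TPM and quantiles), a pseudocount of 1 or 0.01, a minimum of 0.5 or none, and a fit without the trend. Sequences of the members were not used here.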

Additional observations from a re-analysis of the deposited data

Results flagged for a closer look

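In 26 groups of 5 ovaries (9 genes and 4 ratios in each phase), the gap of the extreme ovary to its nearest neighbour was compared with the range of the group. By this rule chance marks about 5% of groups of normally distributed values. Genes were compared as FPKM and not on the log2 scale of the tests, so this share may not hold for them, and their marks may depend on the scale. PTGS2 was marked in the follicular phase, where replicate 5 had an FPKM of 13.6 and the next ovary 4.47. PTGES was marked in the luteal phase, where replicate 2 had 6.76 and the next ovary 3.19. The log2 ratio of PTGES to HPGD was marked in follicular phase replicate 2, at 2.23 against 0.82 in the next ovary. The log2 ratio of PTGFR to PTGER2 was marked in the same ovary, the lowest of its phase at 3.02 against 3.98. That follicular phase ovary also had the highest OXT (3.05) and the lowest PTGFR (13.8) and HPGD (1.63) of its phase.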

How the results depend on the processing

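OXT kept its call under all 20 alternatives, with log2 fold changes from 9.37 (pseudocount of 1) to 10.60 (without follicular phase replicate 2) and adjusted p-values up to 2.00e-06. PTGFR kept its call under all 20, from 3.91 to 4.34. PTGS1, PTGS2, PTGER2 and PTGER4 kept their direction and passed the test under none of them, and leaving out 1 ovary moved PTGS1 between -0.58 and -0.14, PTGS2 between -1.31 and -0.41, PTGER2 between 0.056 and 0.38 and PTGER4 between -0.33 and -0.084. The number of members called was between 2 and 3 when each ovary was left out in turn. Leaving out 1 ovary moved PTGES between -0.97 and -0.55 and HPGD between -0.87 and -0.50, and the ratio of PTGS2 to PTGS1 between -1.07 and -0.27. The ratio of PTGES to HPGD moved between -0.47 and 0.24, with the sign reversed when luteal phase replicate 3 (0.0049) or 4 (0.17) or follicular phase replicate 2 (0.24) was left out. The ratio of PTGFR to PTGER2 moved between 3.77 and 4.14. Its exact permutation p was then 0.0159, the smallest for 4 ovaries against 5, and its adjusted p was 0.0317 without follicular phase replicate 1 and 0.0635 without any other ovary.

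Equal replicate numbers are not known to pair ovaries. The deviations of same-numbered ovaries from their phase means correlated by 0.026 to 0.20, over 0.1 in 2 of 5 pairs, and 2 of 5 luteal phase ovaries correlated best with their own number. With a replicate block 4 members were called, since PTGES (-0.72, adjusted p = 0.00585) and HPGD (-0.65, adjusted p = 0.0153) passed the test. With the block the ratio of PTGFR to PTGER2, 3.98, had a sign-flip p of 0.0625, the smallest that 5 pairs allow. With the block 7020 genes were called over the whole table, and with the most abundant transcript in place of the sum 4926. The calls for wider pathway genes numbered 23 to 30. Depth per ovary is unknown, so the precision of a level as low as that of OXTR is unknown.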
